A study of Mus musculus with 15 samples.

Results

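The 45 striated muscle genes described here are a fixed list of symbols, all found among the 25382 genes of the count table, and were taken for their place in the contractile apparatus of skeletal and cardiac muscle and not for a measured value. The table covers 15 RNA-seq libraries from tumours grown from MDA-MB-231, an established human line of triple-negative breast cancer that here carried GFP and luciferase, in mice whose strain is labelled Nod/Skid. Every library is labelled as primary tumour, and the libraries fall into 4 strongly adherent (50 dyn/cm2 of shear), 6 weakly adherent (10 dyn/cm2) and 5 unsorted (no shear). The tumours were dissociated into single cells before bulk RNA was taken, so host cells in a tumour can contribute RNA, and the labels name no step that separates them from the cancer cells. Each title also carries a Group number, written below after S for strongly adherent, U for unsorted and W for weakly adherent: S4, S5, S6 and S9, then U4, U5, U6, U7-8 and U9, then W4, W5, W6, W7-8, W9 and W10. The labels do not say what the Group number counts or how many mice stand behind a library, so the spread between libraries may be partly technical. The line's usual markers were present throughout: the filament gene VIM ranged from 1143 to 7399 CPM, while the oestrogen receptor gene ESR1 did not pass 0.234 CPM.

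Striated muscle is built of sarcomeres, in which myosin thick filaments pull on actin thin filaments, and troponin on the thin filament lets this happen only when calcium is released from the sarcoplasmic reticulum. Most of these proteins exist as separate fast, slow, cardiac and developmental forms from separate genes, so the mix of forms is used to tell fibre types apart. Fast fibres carry the myosins of MYH1, MYH2 and MYH4, slow fibres carry that of MYH7, which the heart ventricle shares, and the heart adds MYH6 and ACTC1. Breast cancer cells are not known for running this programme as a whole, although single members such as TNNT1 are found outside muscle.

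The muscle genes were concentrated in 4 of the 15 libraries: strongly adherent 5 and the 3 libraries of Group 6. The 45 genes together took 0.372% of all counts in S5 (exact 95% binomial interval 0.371 to 0.374%, counting error only), 0.132% in U6, 0.0561% in S6 and 0.0275% in W6. They took between 0.00962% and 0.0128% in each of the other 11. For 29 of the 45 genes these 4 libraries were the 4 highest of the 15, and 24 of the 29 followed the order S5, U6, S6, W6. Among all 15190 genes that passed the filter on low counts, 67 genes, or 0.441%, had these 4 libraries above all others, and 27 of the 37 muscle genes that passed were among them. Muscle genes near 0 in the other 11 libraries passed the filter only through these 4, which fixed their place among the 67. As the 4 libraries were singled out by their muscle counts, these figures describe them and test nothing, and no mean is taken over them.

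**Figure D1:**
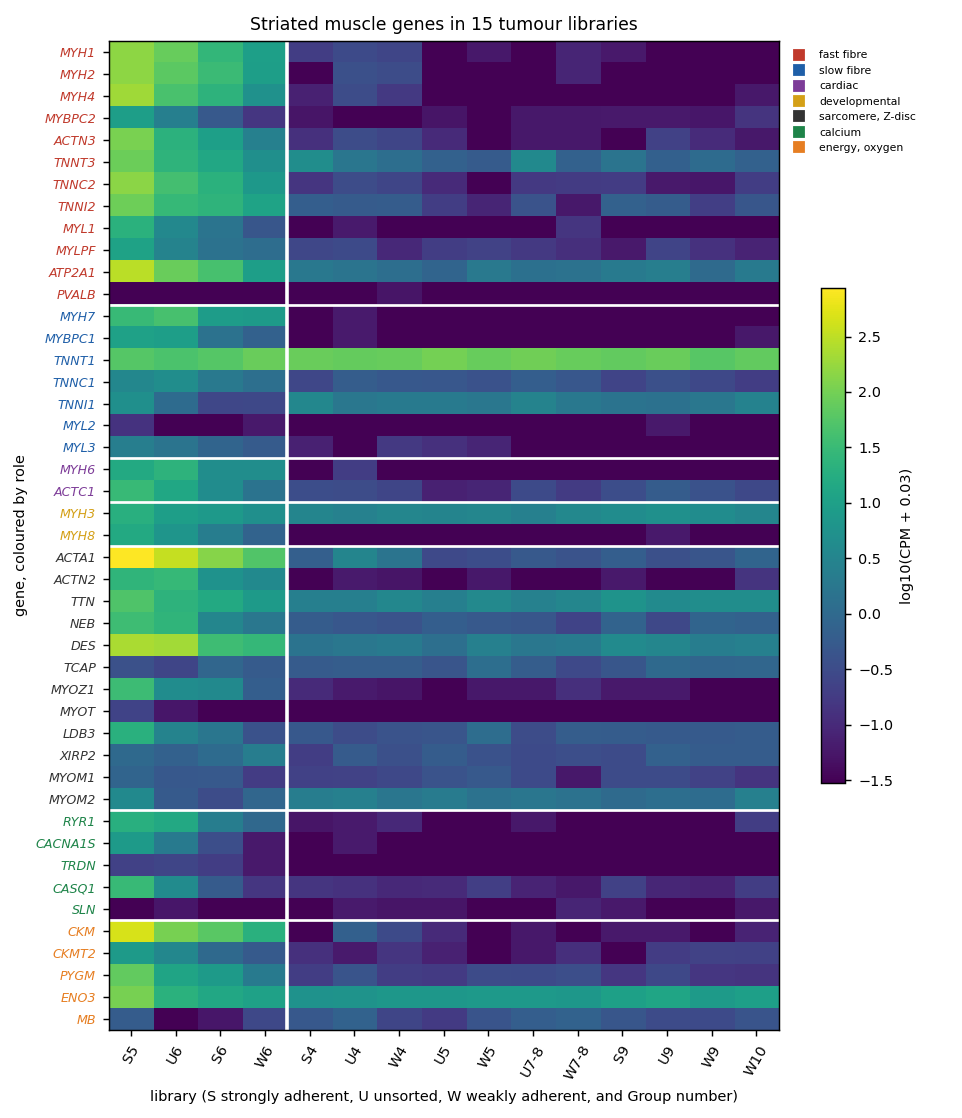
Level of each of the 45 striated muscle genes (vertical axis, coloured by role) in each of the 15 libraries (horizontal axis), as log10 of TMM-scaled CPM plus 0.03. S5, U6, S6 and W6 stand left of the white line, and most genes are brightest there, while TNNT1 is bright in all 15 libraries and PVALB, SLN and MYL2 are dark in all.

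ACTA1, a marker of skeletal muscle, encodes the actin of skeletal muscle thin filaments. Its level in CPM, the counts scaled by TMM to a common library size, was 864 in S5, 350 in U6, 133 in S6 and 53.4 in W6. In the other 11 libraries ACTA1 ranged from 0.261 to 3.24 CPM with a median of 0.488, so the lowest of the 4 lay 16.5-fold above the highest of the 11. CKM, the creatine kinase that buffers ATP in muscle, had 467, 106, 61.9 and 20.2 CPM in the same order. Elsewhere CKM lay between 0 and 0.667 CPM with a median of 0.0309, and 4 of the 11 libraries had no CKM count at all. Neither gene's values in the 4 libraries overlapped those in the rest. In bulk RNA, fewer muscle cells and less muscle RNA per cell cannot be told apart.

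Promoters of 2 of these genes are shown as background. Muscle promoters are known for E-boxes (CANNTG, bound by the MyoD family), MEF2 sites and CArG boxes (bound by SRF). Windows of 300 bases, from 250 before to 50 after the start, were found for 35 of the 45 genes in the mouse RefSeq annotation of GRCm38, and they are mouse sequences, while the counts were made on human genes. Capitals mark the motifs. Ckm lies at chr7:19410844-19411143 on the plus strand and Myh4, a fast myosin gene, at chr11:67237562-67237861 on the plus strand.
Ckm: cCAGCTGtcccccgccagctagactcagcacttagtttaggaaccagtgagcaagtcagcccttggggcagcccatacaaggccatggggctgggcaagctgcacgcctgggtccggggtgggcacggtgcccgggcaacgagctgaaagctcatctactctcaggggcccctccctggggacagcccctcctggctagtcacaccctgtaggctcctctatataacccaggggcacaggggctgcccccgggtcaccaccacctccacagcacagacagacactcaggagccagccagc
Myh4: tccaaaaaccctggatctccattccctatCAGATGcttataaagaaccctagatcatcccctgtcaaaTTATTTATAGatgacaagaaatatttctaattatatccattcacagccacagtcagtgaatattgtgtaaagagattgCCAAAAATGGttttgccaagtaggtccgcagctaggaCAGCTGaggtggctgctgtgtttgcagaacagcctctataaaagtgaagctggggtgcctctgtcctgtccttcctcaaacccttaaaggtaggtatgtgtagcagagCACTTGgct
The Ckm window held 1 E-box of the form CAGCTG, and the Myh4 window held 3 E-boxes, 1 of them CAGCTG, with 1 MEF2 and 1 CArG match. Searching both strands, CAGCTG occurred in at least 1 window of 16 of the 35 muscle genes (45.7%) and of 18.3% of all 27025 genes. The MEF2 motif occurred in 6 of 35 (17.1%) beside 3.70% of all genes, and the CArG box in 6 of 35 (17.1%) beside 1.81%. CAGCTG is also a CANNTG, which 88.6% of the 35 muscle genes and 75% of all genes held. Carriers of CAGCTG included genes that were high in S5 and Group 6, such as Ckm, and also Mb, Tnni1 and Myl2, which did not follow. A link between these motifs and the levels was not tested.

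Among the 12 fast fibre genes, 11 had their 4 highest values in S5, U6, S6 and W6, and each of the 11 fell in that order. MYH4, the myosin of the fastest fibres, had 202 CPM in S5, 45.7 in U6, 23.2 in S6 and 5.31 in W6, while 7 of the other 11 libraries held no MYH4 count and the highest, U4, reached 0.300 CPM. MYH1 had 152, 80.6, 27.0 and 9.71 CPM in the same 4 libraries and at most 0.267 CPM elsewhere. MYH2 had 153, 66.0, 33.3 and 9.52 CPM and at most 0.334 CPM elsewhere. All 3 fast myosins therefore ranked the 4 libraries alike. The pump that returns calcium to the store in fast fibres, ATP2A1, had 295, 82.8, 43.2 and 9.61 CPM, and between 0.807 and 2.35 CPM, median 1.53, in the other 11.

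The fast thin filament genes followed the same order. TNNC2, the fast troponin subunit that binds calcium, had 146, 39.5, 21.2 and 7.19 CPM beside 0 to 0.300 CPM in the other 11 (median 0.136). TNNI2, the fast inhibitory subunit, had 88.0, 29.5, 23.9 and 11.3 CPM beside 0.0292 to 0.685 CPM (median 0.437). TNNT3, the fast subunit that anchors troponin to tropomyosin, was less clearly apart. It had 85.7, 24.1, 14.1 and 4.95 CPM, but S4 reached 4.63 CPM and U7-8 reached 3.93 CPM, against a median of 1.05 over the 11. ACTN3, the alpha-actinin of fast fibre Z-discs, had 110, 22.3, 9.79 and 2.64 CPM and at most 0.300 CPM elsewhere. The fast light chain genes were in the same order, with MYL1 at 21.4, 3.59, 1.55 and 0.430 CPM and MYLPF at 11.2, 2.98, 1.42 and 1.17 CPM, and neither passed 0.267 CPM in the rest. MYBPC2, the fast myosin-binding protein, was separated from the rest by little in W6, which held 4 counts (0.123 CPM) beside 4 counts in W10 (0.109 CPM). PVALB, the calcium buffer known to be abundant in mouse fast fibres, had 1 count in W4 and none in the other 14 libraries. For S5 a count of 0 allows up to 0.0631 CPM.

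The slow fibre genes were mixed, with 4 of 7 highest in the 4 libraries. MYH7, the slow and ventricular myosin, had 30.01 CPM in S5, 42.7 in U6, 8.67 in S6 and 7.89 in W6, and 1 count in all other 11 libraries together. U6 therefore ranked above S5 for MYH7, unlike for every fast gene except PVALB, which had no count in either. TNNC1, the slow and cardiac calcium-binding troponin, likewise had its highest level in U6, with 3.41, 4.63, 1.85 and 1.23 CPM beside 0.164 to 0.623 CPM in the other 11 (median 0.367). MYBPC1, the slow myosin-binding protein, had 10.7, 9.36, 1.39 and 0.706 CPM and at most 0.0334 CPM elsewhere. MYL3, the slow and ventricular light chain, had 2.38, 1.55, 0.776 and 0.553 CPM and at most 0.137 CPM elsewhere.

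The other 3 slow genes did not follow. TNNT1, the slow tropomyosin-binding troponin, was counted in every library, at 58.1 CPM in S5, 47.1 in U6, 57.2 in S6 and 83.9 in W6, beside 59.8 to 100.3 CPM in the other 11 (median 79.0). S5, U6 and S6 thus lay below all 11 others for TNNT1, and W6 lay within their range. TNNI1, the slow inhibitory subunit, had 5.00 CPM in S5, the highest of all, but 1.07 in U6, 0.241 in S6 and 0.246 in W6, below the range of 1.36 to 3.52 CPM (median 1.81) in the 11. MYL2, the regulatory light chain of slow fibres and ventricle, had 5 counts in S5, 1 in W6, 1 in U9 and none in the remaining 12 libraries.

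**Figure D2:**
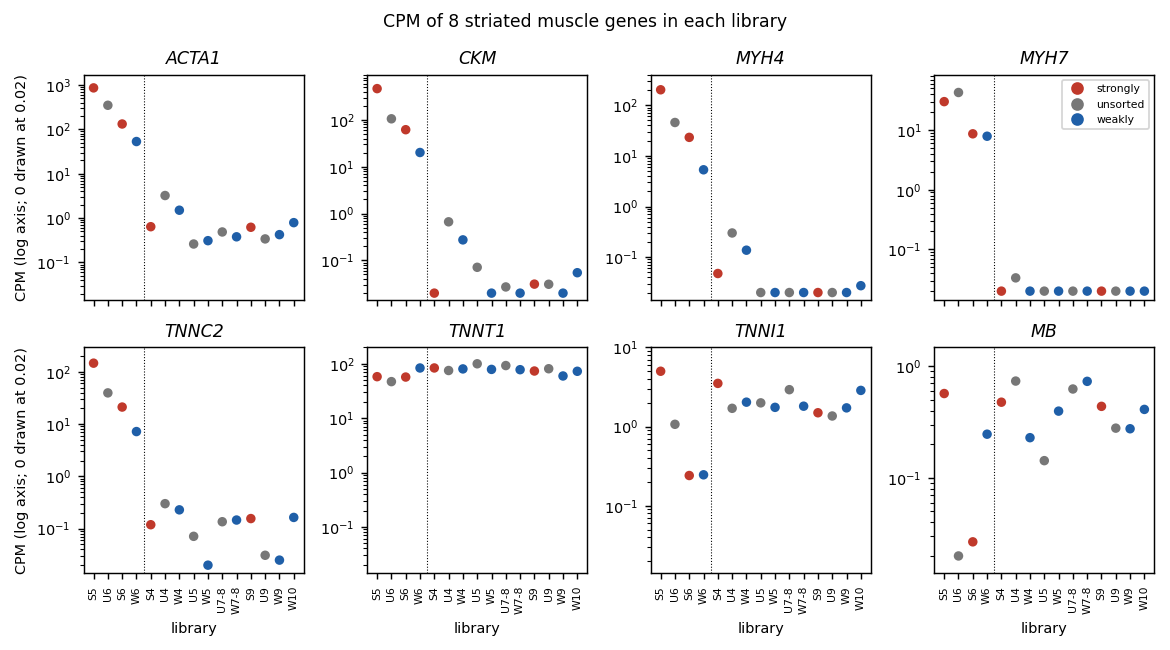
CPM on a log axis (a value of 0 is drawn at 0.02) of 8 muscle genes in each library, with strongly adherent libraries in red, unsorted in grey and weakly adherent in blue. ACTA1, CKM, MYH4, MYH7 and TNNC2 are high in the 4 libraries left of the dotted line, TNNT1 lies between 47.1 and 100.3 CPM in all 15, and TNNI1 and MB are low in U6 and S6.

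The balance between slow and fast forms differed among the 4 libraries. MYH7 made up 5.59% of the summed counts of MYH7, MYH1, MYH2 and MYH4 in S5 (exact 95% binomial interval 5.32 to 5.88%), 9.40% in S6 (8.44 to 10.4%), 18.2% in U6 (17.4 to 19.0%) and 24.3% in W6 (21.8 to 27.0%). The 4 intervals did not overlap, so the differences exceeded counting error, but each is a single library. Troponin C ordered the libraries in the same way, with TNNC1 at 2.28% of TNNC1 and TNNC2 in S5, 8.02% in S6, 10.5% in U6 and 14.6% in W6. The intervals of S6, U6 and W6 overlapped their neighbours. TNNC1 was also counted in the other 11 libraries, at 0.164 to 0.623 CPM, and its share was not corrected for this. Within the fast myosins, MYH4 made up 39.9% of MYH1, MYH2 and MYH4 in S5 (39.3 to 40.5%), 27.8% in S6, 23.7% in U6 and 21.7% in W6 (18.8 to 24.7%), a share chosen after its values were seen. These shares compare libraries and not the genes with each other, since levels per transcript length were not computed. The other troponin pairs ordered the 4 libraries differently. TNNI1 made up 5.38% of TNNI1 and TNNI2 in S5, 3.50% in U6, 0.998% in S6 and 2.12% in W6. It made up between 68.6% and 98.4% in the other 11, where TNNI2 was nearly absent. TNNT1 made up 40.4% of TNNT1 and TNNT3 in S5, 66.2% in U6, 80.2% in S6 and 94.4% in W6, beside 94.8% to 99.3% in the rest.

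**Figure D3:**
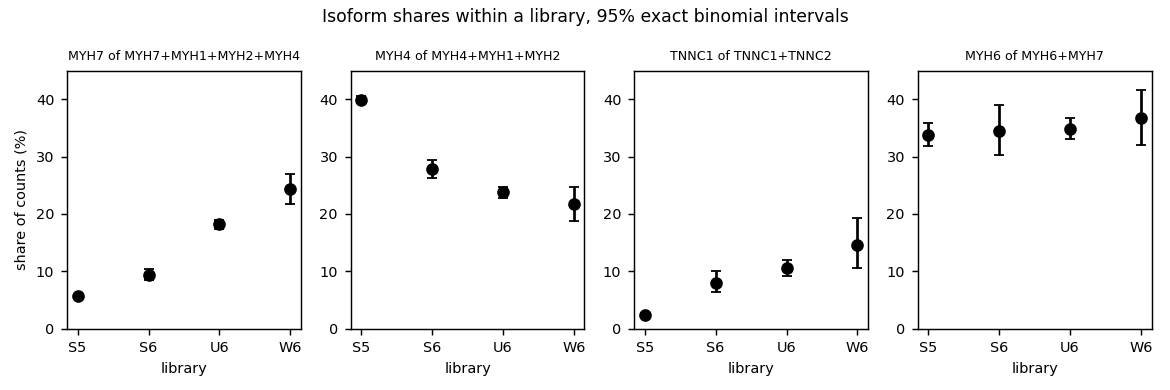
Share of counts (vertical axis, %) taken by the first-named gene within each set of muscle isoforms in libraries S5, S6, U6 and W6, with exact 95% binomial intervals. MYH7 and TNNC1 shares go up from S5 to W6, the MYH4 share goes down from 39.9% to 21.7%, and the MYH6 share stays between 33.8% and 36.7%. The TNNI1 and TNNT1 shares, which order the libraries differently, are not drawn.

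Both cardiac genes were highest in the 4 libraries. ACTC1, the cardiac actin also made in immature skeletal muscle, had 30.6 CPM in S5, 13.8 in U6, 4.36 in S6 and 1.44 in W6, beside 0.0475 to 0.557 CPM in the other 11 (median 0.271). Its share of ACTC1 and ACTA1 counts was 3.42%, 3.78%, 3.18% and 2.63%. MYH6, the atrial myosin, had 15.3, 22.8, 4.57 and 4.58 CPM, and 10 of the other 11 libraries held no MYH6 count. MYH6 made up 33.8% of MYH6 and MYH7 counts in S5 (31.8 to 35.8%), 34.5% in S6, 34.9% in U6 and 36.7% in W6 (32.0 to 41.6%), so that this ratio, a share also chosen after its values were seen, differed by less than counting error while the level of both genes ranged widely.

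Because reads of 50 bases from one of these genes can match the other, the longest identical stretch of the mouse coding sequences is shown for both cardiac and skeletal partners (GENCODE vM21 on GRCm38, 5′ to 3′, no capitals because every base is shared). Myh6 (chr14:54941921-54966927, minus strand) and Myh7 (chr14:54970684-54994626, minus strand) are neighbours, are 91.7% identical over the aligned coding bases and share 23.8% of 50-base windows, the longest run being 245 bases. Acta1 (chr8:123891769-123894751, minus strand) and Actc1 (chr2:114047282-114053548, minus strand) are 86.3% identical but share no 50-base window, the longest run being 29 bases.
Myh6 and Myh7: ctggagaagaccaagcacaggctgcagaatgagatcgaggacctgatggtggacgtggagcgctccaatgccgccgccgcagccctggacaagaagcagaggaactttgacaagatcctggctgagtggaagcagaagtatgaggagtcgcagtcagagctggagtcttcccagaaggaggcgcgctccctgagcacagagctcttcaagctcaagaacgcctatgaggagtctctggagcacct
Acta1 and Actc1: ctggctcccagcaccatgaagatcaagat
The fast myosins also share windows in mouse: 20.5% between Myh1 and Myh2, 10.99% between Myh1 and Myh4 and 10.4% between Myh2 and Myh4. The troponin partners and Myl2 with Mylpf are 66.1% to 68.7% identical and share none. Counts of single myosin genes are therefore less certain than those of the troponins, and the labels do not say how such reads were counted.

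Of the developmental myosins, MYH8, made around birth, had 15.4, 6.44, 2.27 and 0.768 CPM in S5, U6, S6 and W6 and 1 count in all other 11 libraries together. MYH3, the embryonic myosin, had 19.1, 9.64, 7.44 and 4.98 CPM and was also counted in every other library, at 2.60 to 5.20 CPM (median 3.33). W6 thus overlapped the rest for MYH3.

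The 12 other sarcomere and Z-disc genes, most of them shared by fibre types, were split 6 and 6. DES, the intermediate filament that links Z-discs and is also made in smooth muscle, had 237 CPM in S5, 211 in U6, 35.8 in S6 and 27.5 in W6, beside 1.23 to 4.08 CPM (median 1.99) in the other 11. ACTN2, the alpha-actinin of Z-discs that fibre types and heart share, had 24.8, 29.4, 5.70 and 3.90 CPM and at most 0.109 CPM elsewhere. The giant scaffold genes were counted more widely: TTN had 52.0, 23.2, 15.4 and 8.14 CPM with up to 5.82 CPM in S9, and NEB had 36.3, 25.1, 3.37 and 1.72 CPM with up to 0.775 CPM in W9. MYOZ1, a Z-disc protein of fast fibres, had 34.5, 4.48, 3.88 and 0.614 CPM and at most 0.0876 CPM elsewhere.

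The remaining Z-disc and M-band genes overlapped between the libraries. LDB3, which binds alpha-actinin, had 20.3, 2.98 and 1.66 CPM in S5, U6 and S6 but 0.369 CPM in W6, within the range of 0.298 to 1.13 CPM of the 11. XIRP2, a filament-binding repeat protein, was highest in W6 at 2.30 CPM, with 0.967, 0.687 and 1.04 CPM in S5, U6 and S6 and up to 0.711 CPM in U9. MYOM1, an M-band protein, had 0.799 CPM in S5 and at most 0.508 CPM in any other library. MYOM2, its partner in fast fibres, had 3.89 CPM in S5 but 0.509, 0.294 and 0.860 CPM in U6, S6 and W6, below the 1.03 to 2.59 CPM of the other 11. TCAP, which caps titin at the Z-disc, lay between 0.229 CPM in U6 and 1.21 CPM in W5, with S5 at 0.357 CPM. MYOT, another Z-disc protein, had 10 counts in S5, 1 in U6 and none elsewhere.

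Calcium release genes were high mainly in S5 and U6. RYR1, the release channel of the skeletal muscle store, had 19.8, 14.6, 2.33 and 0.952 CPM in S5, U6, S6 and W6 and at most 0.164 CPM elsewhere. CASQ1, which holds calcium in the store of fast fibres, had 30.2, 4.30, 0.535 and 0.123 CPM, and its W6 value lay within the 0.0292 to 0.187 CPM of the other 11. CACNA1S, the voltage sensor that opens RYR1, had 383, 80, 12 and 1 counts, and 1 count in the other 11 libraries together. TRDN, which ties CASQ1 to RYR1, had 9, 9, 6 and 1 counts and none in the other 11. SLN, the small inhibitor of the calcium pump, had no count in S5, S6 or W6 and at most 2 in any library.

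Of the energy genes other than CKM, ENO3, the muscle enolase, had 105 CPM in S5, 21.4 in U6, 14.1 in S6 and 10.8 in W6. ENO3 was present throughout, and W6 lay within the 5.70 to 12.3 CPM (median 7.54) of the other 11. PYGM, which breaks down muscle glycogen, had 73.5, 11.9, 8.00 and 2.03 CPM beside 0.109 to 0.400 CPM elsewhere. CKMT2, the mitochondrial creatine kinase of muscle, had 8.08, 3.49, 0.963 and 0.522 CPM and up to 0.200 CPM in W9, and its share of CKMT2 and CKM counts was 1.70%, 3.19%, 1.53% and 2.52%. MB, the oxygen store myoglobin of slow fibres and heart, had 0.568 CPM in S5, no count in U6, 0.0267 CPM in S6 and 0.246 CPM in W6, beside 0.142 to 0.734 CPM (median 0.409) in the other 11. MB was thus not raised in any of the 4 libraries in which ACTA1 passed 53 CPM.

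Among genes highest in the 4 libraries, the slow genes had a higher median percentage of their S5 level in each Group 6 library than the fast genes. Over the 11 fast genes highest in the 4 libraries, the median level in U6 was 27.0% of that in S5, in S6 14.5% and in W6 4.92%. Over the 4 slow genes it was 112%, 30.8% and 24.8%, but MYBPC1 at 13.0% in S6 and 6.61% in W6 lay among the fast genes. The slow gene TNNI1, not highest in the 4 libraries and so left out, stood at 21.4%, 4.81% and 4.91%. MYH6 in U6 stood at 149% of its S5 level, MYH7 at 142%, TNNC1 at 136% and ACTN2, shared by fibre types, at 119%. MYOZ1 stood at 13.0% and PYGM at 16.2%. This comparison sets single libraries side by side and has no replicate check.

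**Figure D4:**
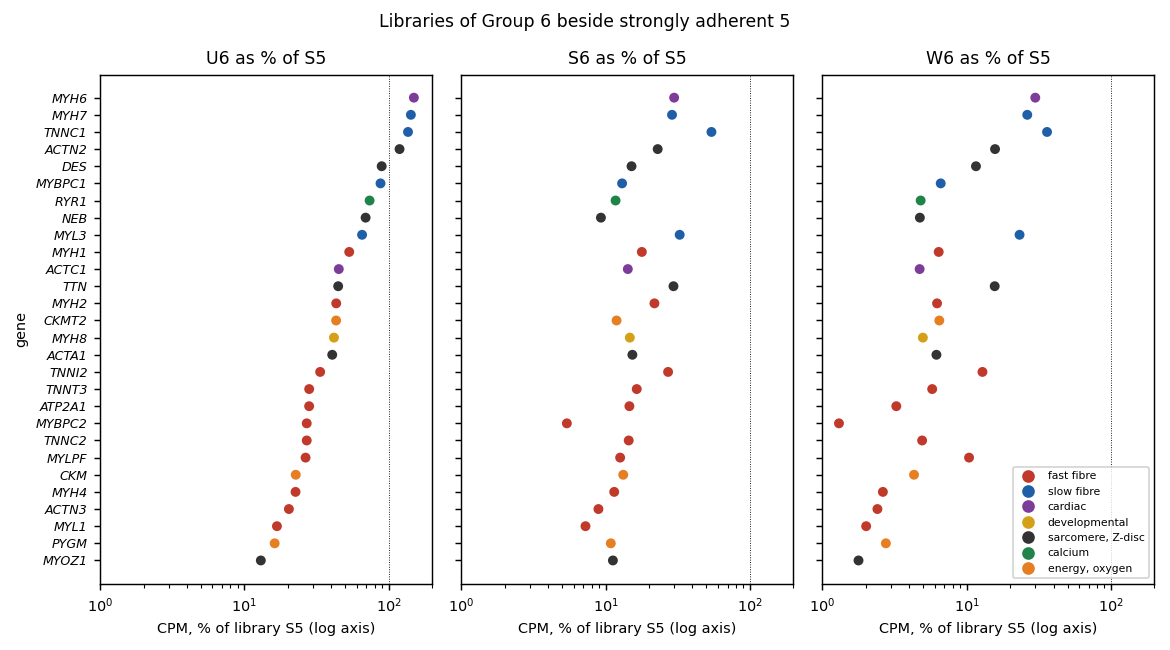
CPM in U6, S6 and W6 as a percentage of that in S5 (log axis; dotted line at 100%) for 28 of the 29 muscle genes highest in these 4 libraries, leaving out TRDN for its low counts. In U6 the slow genes (blue) and MYH6 lie to the right of every fast gene (red), for example MYH7 at 142% and MYH4 at 22.6%.

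Among the other 11 libraries, small amounts of the same transcripts were seen in Group 4. MYH1 had 7 counts in S4, 8 in U4 and 10 in W4 and 0 to 2 counts in the other 8 libraries. MYH2 had 10 counts in U4 and 13 in W4 but none in S4. CKM had 20 in U4 and 12 in W4, none in S4 and at most 3 in the others, and ACTA1 had 97, 66 and 27 counts in U4, W4 and S4 and 11 to 29 in the others. U4 was the highest of the 11 for 14 of the 45 genes, yet only MYH1 and MYH4 had all 3 Group 4 libraries above the other 8.

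The adhesion groups were compared next, which is the comparison the series was designed for. No muscle gene passed an adjusted p of 0.05 in any of the 3 contrasts (edgeR quasi-likelihood, Benjamini-Hochberg over 15190 genes), beside 0% of all genes. At an unadjusted p under 0.05, 18 of the 37 muscle genes tested passed for weakly against strongly adherent, 0 for weakly adherent against unsorted and 2 for strongly adherent against unsorted, out of 366, 81 and 572 genes in all. The 18 became 0 without S5, 1 in limma voom and in each limma-trend fit, and 2 with the Group number as a term, and were 15 in DESeq2. The fitted differences were large but so were their errors. For weakly minus strongly adherent the log2 fold change of ACTA1 was -4.73 ± 2.41 (SE) and that of CKM was -5.30 ± 2.56, each with an adjusted p of 0.999983 in edgeR. The median over the 37 genes was -3.62 beside -0.02 over all genes, and 33 of the 37 were negative. For weakly adherent minus unsorted, ACTA1 was -2.92 ± 2.20 and the median -2.62. For strongly adherent minus unsorted, ACTA1 was 1.81 ± 2.32 and the median 1.46. These contrasts share libraries, and each rests on the 1 or 2 high libraries a group holds: S5 and S6 among strongly adherent, U6 among unsorted and W6 among weakly adherent. Without Group 6 and S5, the ACTA1 value for weakly minus strongly adherent was 0.14, and that for strongly adherent minus unsorted was -0.76. DESeq2 likewise called no muscle gene in any of the 3.

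The Group numbers were then compared, with the adhesion group as a term. Group 6 against the rest gave 19 of the 37 muscle genes at an adjusted p under 0.05 in edgeR, 16 higher and 3 lower, beside 26.5% of all genes (10.4% higher and 16.0% lower). The median log2 fold change was 3.56 over the muscle genes and -0.01 over all genes. Group 6 was singled out for its muscle counts, so its calls describe it and are no independent evidence, and the rest includes S5. The 5 fast genes that rose were MYH1, MYH2, MYH4, TNNC2 and TNNI2. The slow genes MYH7, MYBPC1, TNNC1 and MYL3, the cardiac MYH6, the developmental MYH8, and ACTA1, ACTN2, DES, XIRP2 and CKM rose as well. The log2 fold change was 8.19 ± 1.97 (SE) for MYH7 (adjusted p = 0.0107) and 6.50 ± 1.82 for ACTA1 (adjusted p = 0.0223). It was 7.06 ± 2.10 for CKM (adjusted p = 0.0288). TNNI1 fell by 2.21 ± 0.511 on the log2 scale (adjusted p = 0.00554), MYOM2 fell by 1.77 ± 0.463 (adjusted p = 0.0109) and MB fell by 2.36 ± 0.777 (adjusted p = 0.0340). TNNT1 had -0.30 ± 0.164 (adjusted p = 0.186). Groups 4, 5, 7-8 and 9, fitted in the same way, each gave 0 muscle genes and at most 0.00658% of all genes (edgeR). In each of these fits the rest held the Group 6 libraries with their high muscle counts, so the 0 is no background for Group 6. Group 10 is a single library. At an unadjusted p under 0.05 (edgeR), the muscle genes passing were 0 for Group 4, 2 for Group 5, 0 for Group 7-8 and 6 for Group 9, beside 29 for Group 6. Of all 15190 genes, 255, 584, 245 and 918 passed for these Group numbers, beside 6018 for Group 6. Group 10 is left out of these counts.

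S5 weighed heavily on this contrast. Without it, 34 of the 37 muscle genes passed in edgeR, 31 higher and the same 3 lower, beside 24.4% of all genes, and the log2 fold change of MYH7 was 11.7 ± 0.299. ACTA1 then had 7.56 ± 0.564 and CKM 9.12 ± 0.592. TNNT1, TCAP and MYOM1 were the 3 that did not pass. S5 and Group 6 were both singled out for high muscle counts. The calls and small standard errors without S5 therefore follow from that choice and test nothing. Without the adhesion term, in contrast, 5 passed beside 26.9% of all genes, and ACTA1 had 1.29 (edgeR adjusted p = 0.708). Without unsorted 6 (25 muscle genes tested) 3 passed beside 21.6% of all genes, and ACTA1 had 4.61 (edgeR adjusted p = 0.166). Without weakly adherent 6, where 25 muscle genes were tested, none was called higher, and the 4 called lower were MB, MYOM2, TNNI1 and TNNT1. That fit called 22.3% of all genes in either direction. Without unsorted 6 or weakly adherent 6, the filter dropped muscle genes that pass only through S5 and Group 6, so these could not be called. Without U4, U5, U7-8 or U9, 11 of the 37 were called each time, 8 higher and 3 lower. The shares of all genes called were 24.4%, 24.7%, 24.3% and 25.3% in that order. Without S6, 21 were called higher and none lower, so the calls for TNNI1, MYOM2 and MB were lost, beside 10.7% of all genes. DESeq2 called 5, beside 31.2% of all genes, and gave no adjusted p for 26 of the 37.

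**Figure D5:**
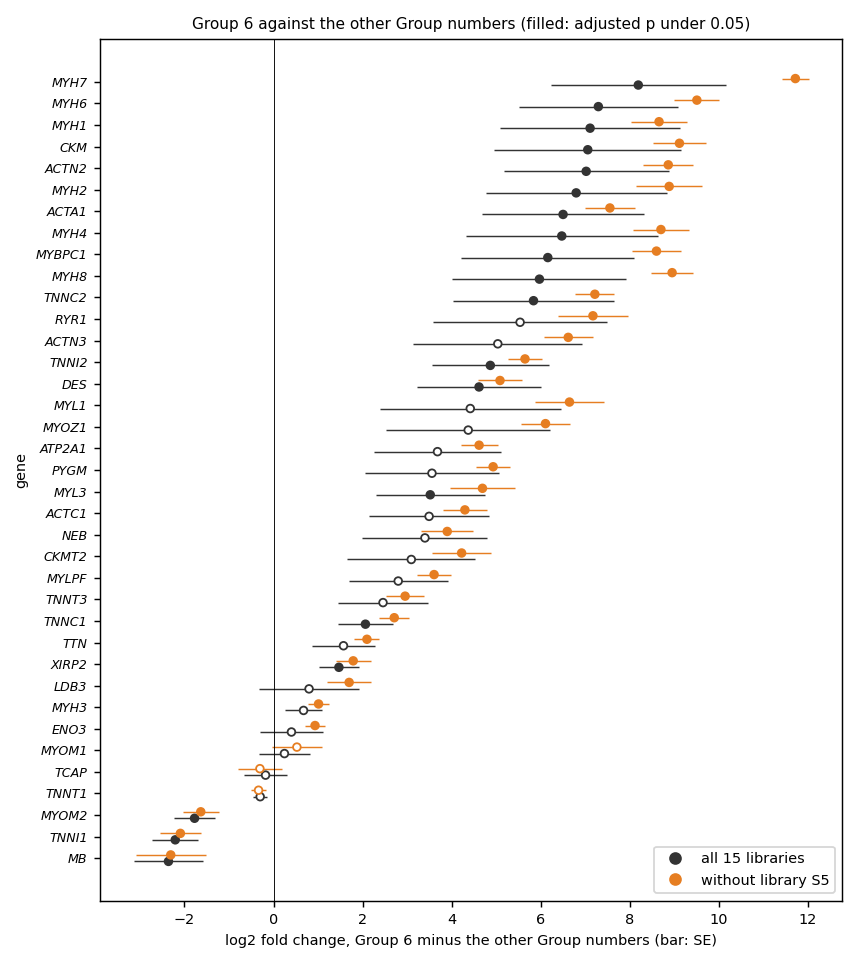
Log2 fold change of the 37 muscle genes tested, Group 6 minus the other Group numbers, with standard errors (horizontal axis); filled points passed an adjusted p of 0.05 in edgeR. In black are all 15 libraries, with 19 filled, and in orange the fit without S5, with 34 filled; MB, TNNI1 and MYOM2 lie left of 0 in both.

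Few other genes shared the pattern of the muscle genes, some of which passed the filter only through the 4 libraries. Taking the 67 genes with the 4 libraries on top, 27 had the lowest of the 4 at least 2-fold above the highest of the 11 (a limit chosen after the values were seen), and 24 of these were on the muscle list. The other 3 were MYH13, the myosin of eye and throat muscle, and the Z-disc and tendon-end proteins CSRP3 and NRAP. MYH13 had 31.5, 13.6, 3.29 and 1.17 CPM and at most 0.226 CPM elsewhere, CSRP3 2.99, 6.95, 0.802 and 0.921 CPM, and NRAP 2.69, 3.77, 0.428 and 0.369 CPM. Like MYH7, both CSRP3 and NRAP were highest in U6. By likeness to the mean log2 CPM of the 37 muscle genes over the 15 libraries, a measure set largely by the 4 libraries, MYH13 came first of 13107 genes (Pearson r = 0.977, Spearman rho = 0.736), then the small heat shock gene CRYAB (r = 0.938, rho = 0.764) and KLHL41 (r = 0.910, rho = 0.575). PREPL, TPM2, LRPPRC, WDR3, THBS4, C10orf54 and TOMM70A followed, with r from 0.851 to 0.826. CRYAB had 43.2, 43.6, 4.81 and 10.4 CPM beside up to 3.47 CPM elsewhere.

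A further 60 striated muscle genes, listed apart, gave 3 of 60 with the 4 libraries highest (CSRP3, NRAP and KLHL41). In the Group 6 contrast 5 of the 37 tested rose (MYOZ2, CSRP3, NRAP, FHL1 and FHL3), 3 fell (JPH2 and FBXO32 among them), and the median was 0.15 (edgeR, beside the 26.5% given above). The tropomyosin genes are expressed in many cell types: TPM1 reached 1392 CPM in S5 but lay at 446, 242 and 219 CPM in U6, S6 and W6 beside 229 to 371 CPM in the other 11. TPM2 had 513, 184, 107 and 69.5 CPM beside 37.3 to 108 CPM, while TPM3 lay between 454 and 661 CPM in all 15 libraries. FHL1, a LIM protein of muscle, had 53.2, 113, 65.1 and 52.0 CPM beside 19.2 to 54.1 CPM. Several genes were high in S5 with little in Group 6. The muscle AMP deaminase AMPD1 had 286 counts in S5, 24 in U6, 2 in S6 and none in W6, and SRL, a protein of the calcium store, had 92 in S5, 9 in U6 and none in S6 or W6.

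Myogenic regulators were present in the same libraries at low level. MYF6, the regulator kept on in mature fibres, had 272 counts in S5, 131 in U6, 74 in S6 and 3 in W6, and MYOG had 18, 52, 18 and 7. Neither had a count in any of the other 11 libraries. MYOD1 had at most 8 counts and the satellite cell gene PAX7 had 1 count in S5 and none elsewhere, so the stem cell end of the list was at or near 0. Over all 15 regulators the summed level was 135.9, 134.0, 82.0 and 90.6 CPM beside 93.2 to 127 CPM in the rest.

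For no list of another cell type that a tumour can hold did all 4 libraries have a summed level above the other 11. Several sums rest largely on genes counted in every library, so a sum need not follow its cell type. ANKRD1 had 44.9 of the 53.5 CPM of the cardiac sum in S5. CD68 had 176 of the 189 CPM of the macrophage and leukocyte sum in S6, while FCGR3A and TYROBP had no count in any library. Of 15 cardiac markers, 6 (MYBPC3, NPPB, MYL7, PLN, TBX5 and GJA5) had no more than 3 counts in any library, and the summed level was 53.5, 54.1, 88.0 and 75.2 CPM beside 62.4 to 141 CPM, with ANKRD1, RYR2, TNNT2 and NKX2-5 among those counted. In the order S5, U6, S6, W6, smooth muscle and pericyte markers summed to 382, 358, 264 and 306 CPM beside 367 to 514 CPM, among them SMTN, ACTA2, TAGLN and MCAM. Fat cell markers summed to 165, 169, 215 and 205 CPM beside 160 to 229 CPM, among them PNPLA2, DGAT2, PPARG and LPL, with ADIPOQ and RETN at 0 in every library. Fibroblast markers summed to 1918, 1059, 786 and 858 CPM beside 1111 to 2047 CPM, among them COL1A1, COL5A1, COL6A3 and COL1A2. Endothelial markers summed to 74.3 CPM in S5 but to 206, 211 and 210 CPM in Group 6, above the 87.6 to 184 CPM of the rest, a sum that followed ESAM (27.4 CPM in S5 and 173, 180 and 163 CPM in U6, S6 and W6). EGFL7 had 34.8 CPM in S5 and 2.82, 5.22 and 12.4 CPM in Group 6, and KDR and CDH5 were also counted. Macrophage and leukocyte markers summed to 95.6 CPM in S5 and 132, 189 and 216 CPM in Group 6 beside 108 to 151 CPM, among them CD68, SPI1, CSF1R and CYBB. The Schwann cell sum was 52.3, 97.9, 71.9 and 51.1 CPM beside 46.9 to 95.7 CPM (among them MBP, NGFR and PRX), the epidermis sum 118, 42.1, 56.0 and 70.0 CPM beside 53.3 to 132 CPM (KRT10, TP63, KRT14 and KRT5), and the red blood cell sum was at most 3.94 CPM (HBB, ALAS2, HBA1 and AHSP). In the Group 6 contrast, 6 of 10 fibroblast markers tested, 5 of 8 macrophage and leukocyte markers, 6 of 16 smooth muscle and pericyte markers and 3 of 5 epidermis markers were lower, with 1, 1, 1 and 0 higher (edgeR), beside 16.0% of all genes lower and 10.4% higher. Of the endothelial markers 3 of 10 were lower (ERG, EGFL7 and SOX18) and 1 higher (CDH5), and of the cardiac markers 2 of 6 were lower (RYR2 and NKX2-5). The part of these other cells, and of mouse muscle RNA counted on human genes, in the muscle values was not tested.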

How the data were processed

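The 15 libraries were read as single ends of 50 bases from stranded TruSeq preparations, as the protocols in the labels state. The submitters' processing notes name the build hg19 and the tools STAR, HTSeq, DESeq2, cutadapt and FastQC, without versions or order. The labels give mouse as organism while the symbols are human. The authors deposited raw counts per gene and a table of log2 values, equal to log2 of the count over a size factor plus 1 (within 5.15e-14). The 45 muscle genes, the marker lists and the 4 libraries singled out were chosen with earlier results of these data known.

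The tests used edgeR 4.0.16 under R 4.3.3 (TMM scaling, filterByExpr, robust quasi-likelihood, two-sided, Benjamini-Hochberg over all 15190 genes tested, threshold 0.05). The filter kept 37 of the 45 muscle genes. CPM values are scaled by TMM. Libraries held 30372619 to 45434799 counts with 16760 to 17974 genes detected, and the biological coefficient of variation was 33.6%. DESeq2 1.42.0, limma 3.58.1 (on the deposited log2 values), other scalings and filters, and leaving out each library were alternatives. Intervals are exact Clopper-Pearson, at 95%, and with the upper limit of 3 counts they cover counting error only. Named genes are every muscle gene, the 4 with the highest maximum in the other lists (a few of which are not reported here), and the 10 closest in pattern. The marker lists were other striated muscle, cardiac, myogenic, smooth muscle and pericyte, fat cell, fibroblast, endothelial, macrophage and leukocyte, Schwann cell, epidermis and red blood cell genes. No human coordinates, sequences or transcript lengths were used here, so levels are compared between libraries and not between genes, beyond the rule for names.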

Additional observations from a re-analysis of the deposited data

Results flagged for a closer look

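In each adhesion group 1 library stood high in many of the muscle genes by Dixon's test at the 95% level, run on CPM without logarithms. Chance passes this test in about 1 of 20 groups for normally distributed values, a rate not checked for these values. S5, U6 and W6 were already singled out as high, so the test adds no evidence, and no rate over all genes was computed. Among strongly adherent libraries S5 stood high in 20 of the 37 muscle genes tested, with ACTA1 at 864 CPM and CKM at 467 CPM, although S6 also lay far above S4 and S9 (ACTA1 133 CPM beside 0.641 and 0.623 CPM). Among unsorted libraries U6 stood high in 28 of 37, with ACTA1 at 350 CPM and CKM at 106 CPM. Among weakly adherent libraries W6 stood high in 26 of 37, with ACTA1 at 53.4 CPM and CKM at 20.2 CPM, while W5 and W7-8 stood high in 1 gene each. The muscle genes are not independent of each other, so these counts are descriptions.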

How the results depend on the processing

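The count of 0 muscle genes in each adhesion contrast held under every alternative run, the replicate block included. The labels do not say that a Group number marks shared mice or days, so the main fits did not take the numbers as pairs. Libraries of the same number were nonetheless more alike. Of same-number pairs, 11 of 13 correlated over 0.1 (median 0.258, lowest 0.0164, and 0.683 to 0.767 within Group 6). Of the other pairs, 17 of 61 did (median -0.0264). The main fits leave this likeness out. With the Group number as replicate block, 0 muscle genes passed, and ACTA1 had log2 fold changes of -3.68 (weakly minus strongly adherent), -1.78 (weakly adherent minus unsorted) and 1.90 (strongly adherent minus unsorted). Leaving out 1 library moved ACTA1 for weakly adherent minus unsorted from -6.66 to 3.20 and CKM from -8.14 to 4.20, both positive without unsorted 6. For strongly adherent minus unsorted, ACTA1 ranged from -0.67 to 7.90 and CKM from -0.049 to 9.47, both negative without S5. Without Group 6 and S5, ACTA1 was 0.14 for weakly minus strongly adherent and -0.76 for strongly adherent minus unsorted. The 19 calls for Group 6 became 5 in DESeq2, 5 without the adhesion term, and 34 without S5 in DESeq2 (added after the data were seen). The shares of all genes called were 31.2%, 26.9% and 28.9% in that order. Leaving out 1 library gave 3 (without unsorted 6) to 34 (without S5), beside the shares of all genes given above. It gave 4, all lower, without weakly adherent 6, 21, all higher, without S6, and 11 without any 1 of the other unsorted libraries. Only 25 muscle genes passed the filter without unsorted 6 or without weakly adherent 6. CKM lost its call without each unsorted library, without weakly adherent 6 and without the adhesion term. The cause was not tested. Genes with few counts, such as TRDN, MYL2, MYOT, SLN and PVALB, were too shallow to compare.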
